A study of Mus musculus with 6 samples.

Results

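The granins and the enzymes that process prohormones were examined as a set of 10 genes: Scg2, Chga, Chgb, Vgf, Scg5, Pcsk1, Pcsk2, Pcsk1n, Cpe and Pam. They were chosen by name, with earlier results of these data known, and all 10 were found among the 16415 genes of the table. Messenger RNA had been sequenced from whole trigeminal ganglion, the sensory ganglion of the face and head, of wild-type mice. There were 3 libraries labelled SETDB2-up, set against 3 libraries labelled NC-up. The labels do not spell out either treatment or its route, give no age or sex, and do not say whether libraries came from separate animals. P-values therefore measure the spread between these libraries, which may be technical.

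Neurons that release peptides make them as large precursors, which are sorted with granins into dense-core vesicles. There the prohormone convertases PC1/3 (Pcsk1) and PC2 (Pcsk2) cut the precursors after pairs of basic residues, carboxypeptidase E (Cpe) trims the exposed basic residues, and the copper enzyme PAM (Pam) amidates the end of many peptides. A pair of small granin-like proteins accompany the convertases: proSAAS (Pcsk1n) binds and inhibits PC1/3, and 7B2 (Scg5) is the chaperone that PC2 needs to become active. In the trigeminal ganglion this route yields CGRP and substance P of nociceptors, and granins themselves are cut into active peptides.

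Values are normalised reads: read counts per gene that the authors divided by 1 factor per library. The whole reads behind them summed to 20355707 to 23501386 per SETDB2-up library and 19334997 to 23395693 per NC-up library. Setdb2 averaged 105 ± 7.72 normalised reads in SETDB2-up and 66.6 ± 7.14 in NC-up (SD, n = 3 each; log2 difference 0.65 ± 0.19 SE; by limma, adjusted p = 0.0253), a call that was lost after a correction for GC content (0.48, adjusted p = 0.159). Neuron markers were abundant, with 13 of 13 in the table and sums of 461035 to 481196 normalised reads in SETDB2-up and 466001 to 491665 in NC-up. Liver transcripts stood out in SETDB2-up libraries 1 and 2: Alb, serum albumin, had 1673, 3769 and 11.6 in libraries 1, 2 and 3 of SETDB2-up and no read in any NC-up library. Results were therefore also computed without those 2 libraries, so that 1 library is left in that group and only NC-up supplies the spread.

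Of the 10 genes, Pcsk1 and Scg2 rose and Pcsk1n fell in SETDB2-up ganglia, and 7 did not pass the test (limma adjusted p under 0.05 over 16387 genes). Among all genes tested 16.4% passed, 7.71% upward and 8.71% downward, and 3 of 10 is read against that background. With edgeR on recovered reads 3 of the 10 passed as well, against 7.37% of all genes upward and 8.99% downward. The median log2 fold change of the 10 genes was 0.03, against 0.00 over all genes. The groups did not overlap for 5 of the 10 genes, 4 higher and 1 lower, against 33.3% of all genes tested. In a bulk sample, fewer cells of a type and less RNA per cell cannot be told apart.

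**Figure D1:**
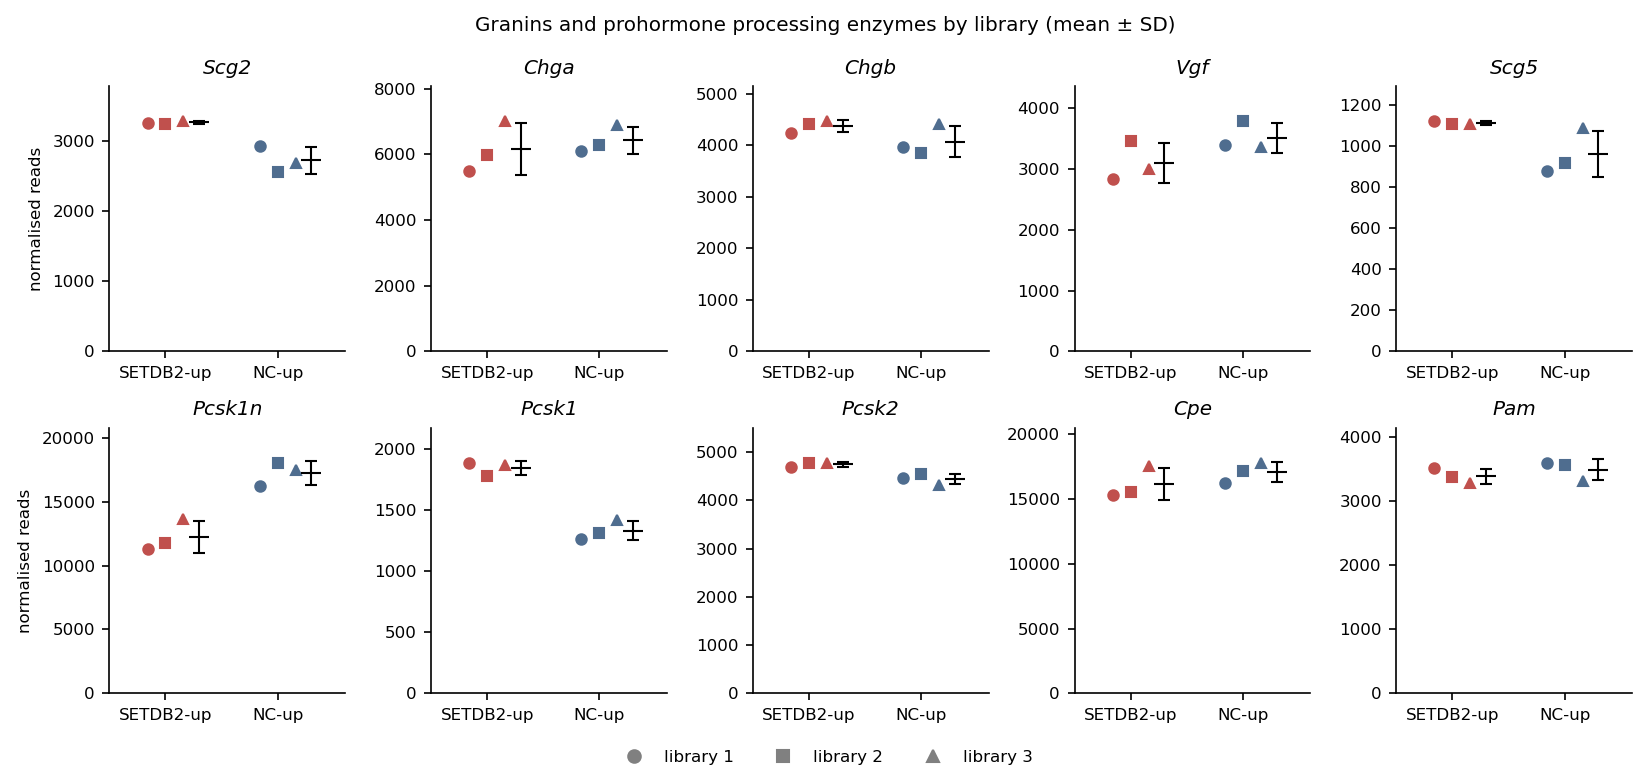
Normalised reads (y axes, from 0) of the 10 genes in each library, SETDB2-up left and NC-up right; each symbol is 1 library and black bars give mean ± SD (n = 3). The groups are apart for Pcsk1, Scg2, Scg5 and Pcsk2, which are higher in SETDB2-up, and for Pcsk1n, which is lower; of the 5, Scg5 and Pcsk2 did not pass the test.

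The clearest change was in PC1/3 and its inhibitor, which moved in opposite directions. Pcsk1 (gene 18548, chromosome 13, 75089420 to 75134861, GRCm38) had 1889, 1776 and 1868 normalised reads in SETDB2-up, against 1266, 1309 and 1420.4 in NC-up. All 3 SETDB2-up libraries lay above all 3 NC-up libraries. The means were 1844 ± 59.9 in SETDB2-up and 1332 ± 79.6 in NC-up (SD, n = 3 each), and the log2 difference was 0.47 ± 0.07 (SE; by limma, adjusted p = 0.000145).

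Pcsk1n (gene 30052, chromosome X, 7919822 to 7924410) had 11275, 11781 and 13675 normalised reads in SETDB2-up, against 16251, 18048 and 17437 in NC-up. The groups did not overlap, and SETDB2-up library 3 was the closest to NC-up. The means were 12244 ± 1265 in SETDB2-up and 17245 ± 914 in NC-up (SD, n = 3 each), and the log2 difference was -0.50 ± 0.07 (SE; by limma, adjusted p = 7.99e-05). It passed in all 20 alternatives run, with adjusted p from 1.03e-10 to 0.0484, and its fold was smallest (-0.24) with GC correction and without SETDB2-up libraries 1 and 2. Pcsk1 passed in 19 of 20, with adjusted p from 9.62e-09 to 0.0536, and missed the threshold in that same setting (0.36, adjusted p = 0.0536).

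Set against each other within a library, Pcsk1n had 5.97, 6.63 and 7.32 reads per Pcsk1 read in SETDB2-up, against 12.8, 13.8 and 12.3 in NC-up. The mean was 6.64 ± 0.676 in SETDB2-up and 13.0 ± 0.763 in NC-up (SD, n = 3 each), and no library of one group reached the range of the other. These are ratios of reads without regard to transcript length, so they show the change between groups and not the proportion of molecules. On the log2 scale the ratio of Pcsk1 to Pcsk1n differed by 0.97 ± 0.10 (SE; exact two-sided permutation p = 0.1, the smallest that 3 against 3 libraries can give). After GC correction the difference was 0.61, and without single libraries it lay between 0.89 and 1.04. With every SETDB2-up library above NC-up for Pcsk1 and below it for Pcsk1n, this ratio had to separate the groups. Its p is therefore not a result apart from those of the single genes.

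**Figure D2:**
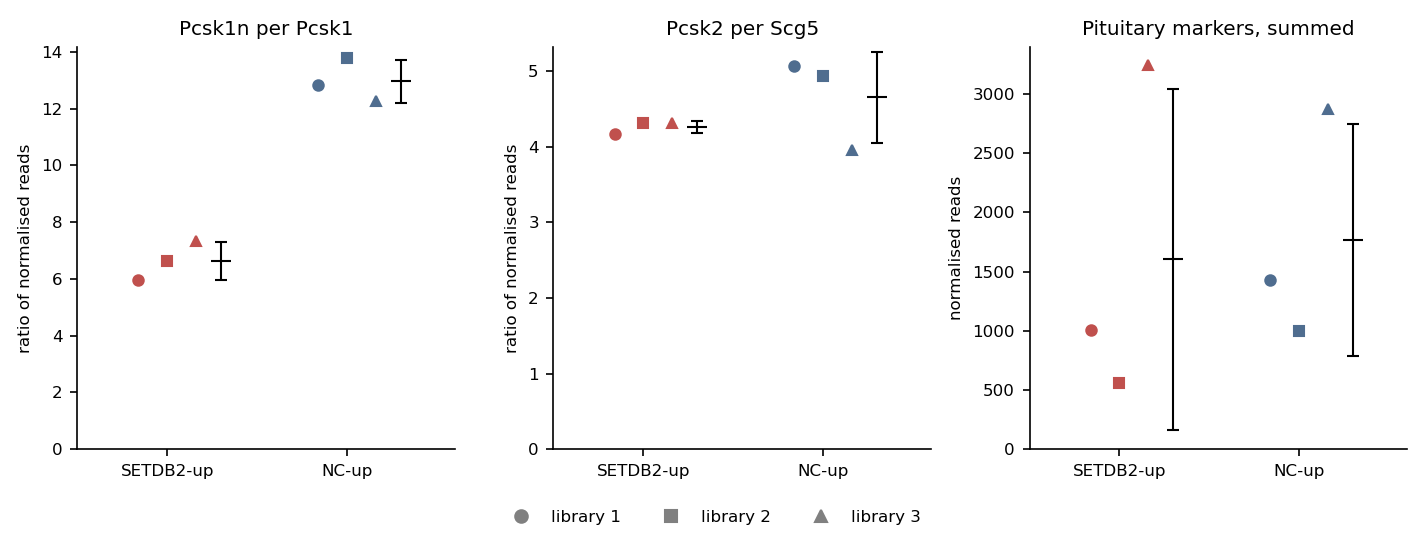
Reads of Pcsk1n per read of Pcsk1 (left), reads of Pcsk2 per read of Scg5 (middle) and summed normalised reads of 4 anterior pituitary markers (right) in each library, SETDB2-up left of NC-up; black bars are mean ± SD (n = 3). The Pcsk1n to Pcsk1 ratio lies between 5.97 and 7.32 in SETDB2-up and above 12 in NC-up, the Pcsk2 to Scg5 ratio overlaps, and library 3 of each group has the most pituitary reads.

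PC2 and its chaperone showed smaller differences. Pcsk2 (gene 18549, chromosome 2, 143546133 to 143816284) had 4685, 4774 and 4780.3 normalised reads in SETDB2-up, against 4457, 4539 and 4324 in NC-up. These ranges are close but apart, and the log2 fold change of 0.10 ± 0.05 (SE) did not pass (limma adjusted p = 0.239). The listed antisense gene Pcsk2os1 averaged 139.5 reads, against 4794.5 for Pcsk2.

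Scg5 (gene 20394, chromosome 2, 113776313 to 113829091) had 1125, 1107 and 1109 normalised reads in SETDB2-up, against 879, 920.3 and 1091 in NC-up. NC-up library 3 lay close to the SETDB2-up values and the other 2 NC-up libraries well below them. The log2 difference of Scg5 was 0.21 ± 0.08 (SE; by limma, adjusted p = 0.0754), and it passed without NC-up library 3 (0.31, adjusted p = 0.0195). The log2 ratio of Pcsk2 to Scg5 differed by -0.12 ± 0.11 (SE; exact two-sided permutation p = 0.4).

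Among the granins, the acidic proteins that help to form dense-core vesicles, only Scg2 passed the test. Scg2 encodes secretogranin II, the precursor of secretoneurin (gene 20254, chromosome 1, 79434366 to 79440026). It had 3257, 3241 and 3286 normalised reads in SETDB2-up, against 2926, 2552 and 2678 in NC-up. The SETDB2-up libraries were nearly equal and all above NC-up, with means of 3261 ± 22.8 in SETDB2-up and 2719 ± 190.2 in NC-up (SD, n = 3 each; log2 difference 0.26 ± 0.06 SE; by limma, adjusted p = 0.00650). The call was lost without NC-up library 2 (0.22, adjusted p = 0.0509), after GC correction (0.18, adjusted p = 0.0756) and without SETDB2-up libraries 1 and 2 (0.28, adjusted p = 0.104).

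The other 3 granins had overlapping groups. Chgb, which encodes chromogranin B (gene 12653, chromosome 2, 132781642 to 132795079), had 4246, 4411 and 4478 normalised reads in SETDB2-up, against 3958, 3840.4 and 4414 in NC-up (log2 fold change 0.11 ± 0.06 SE; by limma, adjusted p = 0.247). NC-up library 3 fell within the SETDB2-up range. Chga, which encodes chromogranin A (gene 12652, chromosome 12, 102554941 to 102565027), had 5492, 5979 and 7031 in SETDB2-up, against 6120.1, 6290.2 and 6897 in NC-up (-0.07 ± 0.07 SE; by limma, adjusted p = 0.581). Vgf, a gene induced by neurotrophins whose product is cut into several peptides (gene 381677, chromosome 5, 137025301 to 137033351), had 2838, 3465 and 3000.04 in SETDB2-up, against 3386, 3793 and 3353 in NC-up (-0.18 ± 0.07 SE; by limma, adjusted p = 0.0921). For both, the groups interleaved, and the sign of the fold change turned after GC correction (0.11 and 0.17).

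The trimming and amidating enzymes did not pass. Cpe (gene 12876, chromosome 8, 64592542 to 64693109) had 15322, 15545 and 17525 normalised reads in SETDB2-up, against 16251, 17180.2 and 17792 in NC-up (log2 fold change -0.08 ± 0.06 SE; by limma, adjusted p = 0.376). SETDB2-up library 3 lay within the NC-up range. Pam (gene 18484, chromosome 1, 97821091 to 98095853) had 3508, 3369 and 3281 in SETDB2-up, against 3598, 3566 and 3306 in NC-up (-0.04 ± 0.06 SE; by limma, adjusted p = 0.662). Its values overlapped as well.

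Levels can be compared between the genes only per length, here as normalised reads per kilobase of merged exons. Cpe was the highest at 7620 ± 573 in SETDB2-up and 8065 ± 367 in NC-up, followed by Pcsk1n at 5583 ± 577 in SETDB2-up and 7864 ± 417 in NC-up (SD, n = 3 each). These 2 overlapped in NC-up and did not in SETDB2-up. Among the 15541 genes with a length, Cpe ranked 68 in SETDB2-up and 66 in NC-up, and Pcsk1n 122 in SETDB2-up and 68 in NC-up. Chga followed at 3275 ± 418 in SETDB2-up and 3418 ± 217 in NC-up, then Chgb at 1598 ± 43.5 in SETDB2-up and 1486 ± 111 in NC-up.

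Below these came a group with similar levels per kilobase. Scg2, Vgf and Pcsk2 had 1297, 1051 and 1005 in SETDB2-up and 1081, 1190.1 and 940.1 in NC-up. Scg5 and Pam had 922 and 825 in SETDB2-up and 798 and 850 in NC-up. In SETDB2-up the ranges of Vgf and Pcsk2 overlapped, and in NC-up those of Vgf and Scg2 and of Pam and Scg5. Pcsk1 was the lowest in both groups, at 366 ± 11.9 in SETDB2-up and 264 ± 15.8 in NC-up (SD, n = 3 each).

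Together the 10 genes took 0.262%, 0.268% and 0.286% of reads in SETDB2-up, against 0.288%, 0.298% and 0.2999% in NC-up. The ranges were apart by little (means 0.272% ± 0.0127 in SETDB2-up and 0.295% ± 0.00612 in NC-up, SD, n = 3 each; exact two-sided permutation p = 0.1, the smallest possible). Pcsk1n made up 21.7% ± 0.956 of these reads in SETDB2-up and 28.1% ± 0.844 in NC-up (SD, n = 3 each). Its fall enters the summed share, which therefore does not show a fall of the set as a whole. The median log2 fold change of the 10 genes was 0.03. The 4 granins alone took 0.0816% ± 0.00385 of all reads in SETDB2-up and 0.0807% ± 0.00198 in NC-up (exact two-sided permutation p = 0.8).

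Several other measures were read beside these results. The anterior pituitary also makes granins and convertases, and 4 of 10 pituitary markers were in the table, with growth hormone (Gh) the highest. The 4 markers summed to 1004, 561 and 3242 normalised reads in SETDB2-up, against 1429, 1002 and 2869 in NC-up. Library 3 had the most in both groups, and was also the highest of its group for Chga, Chgb and Cpe in both. The other genes of the 10 did not share this. Library 3 was the highest in SETDB2-up only for Scg2, Pcsk1n and Pcsk2, in NC-up only for Scg5 and Pcsk1, and in neither group for Vgf and Pam. Without both libraries 3, Pcsk1n (-0.57), Pcsk1 (0.51) and Scg2 (0.25) passed (limma adjusted p = 3.85e-06, 0.000136 and 0.0189), a setting chosen after seeing the data. The pituitary sums left there were 1004 and 561 in SETDB2-up, against 1429 and 1002 in NC-up. The setting thus does not make the groups equal in these markers, and what part pituitary reads had was not tested. Over all genes tested 8.71% fell and 7.71% rose, and after GC correction 3.56% and 1.79%. Of the 13 neuron markers, Rbfox3, Pou4f1 and Elavl3 fell and 10 did not pass. After GC correction 3 fell (Rbfox3, Pou4f1 and Elavl4) and 2 rose (Tubb3 and Prph), and Elavl3 did not pass (adjusted p = 0.146). Scaled so that the mean log2 value of these markers was equal in all libraries, 5 of the 10 genes rose (Pcsk1, Scg2, Scg5, Chgb and Pcsk2) and Pcsk1n fell. With this scaling 2207 of all genes rose and 858 fell (13.5% and 5.24%), against 1263 and 1427 without it.

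Fold changes followed transcript base composition. Across the 10 genes, GC content ran from 40.6% in Pcsk1 to 64.1% in Vgf, and Pearson's r between GC content and log2 fold change was -0.77, as a description over 10 genes that share the same libraries. The same r was -0.41 over 15513 genes. The slope of log2 values on GC, per 10 points of GC content and relative to the mean of all libraries, was -0.17, -0.14 and -0.03 in SETDB2-up libraries 1, 2 and 3 and 0.09, 0.14 and 0.10 in NC-up libraries 1, 2 and 3. Every SETDB2-up library thus had a negative slope and every NC-up library a positive one.

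Genes within 2 GC points of Pcsk1 had a median log2 fold change of 0.21, against 0.47 for Pcsk1. Those near Pcsk1n (57.3% GC) had -0.14, against -0.50, and those near Scg2 (46.8%) had 0.09, against 0.26. Pcsk2 lay at the median of genes like it in GC content (0.09), while Vgf, Chga and Chgb lay above theirs (-0.34, -0.17 and -0.07). With the trend subtracted, Pcsk1 rose by 0.26 ± 0.06 (SE; by limma, adjusted p = 0.0230) and Pcsk1n fell by 0.35 ± 0.05 (SE; by limma, adjusted p = 0.000638). The other 8 did not pass; among all genes 5.35% did, 278 upward and 552 downward (1.79% and 3.56%). What part base composition had in the folds was not tested beyond this correction.

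**Figure D3:**
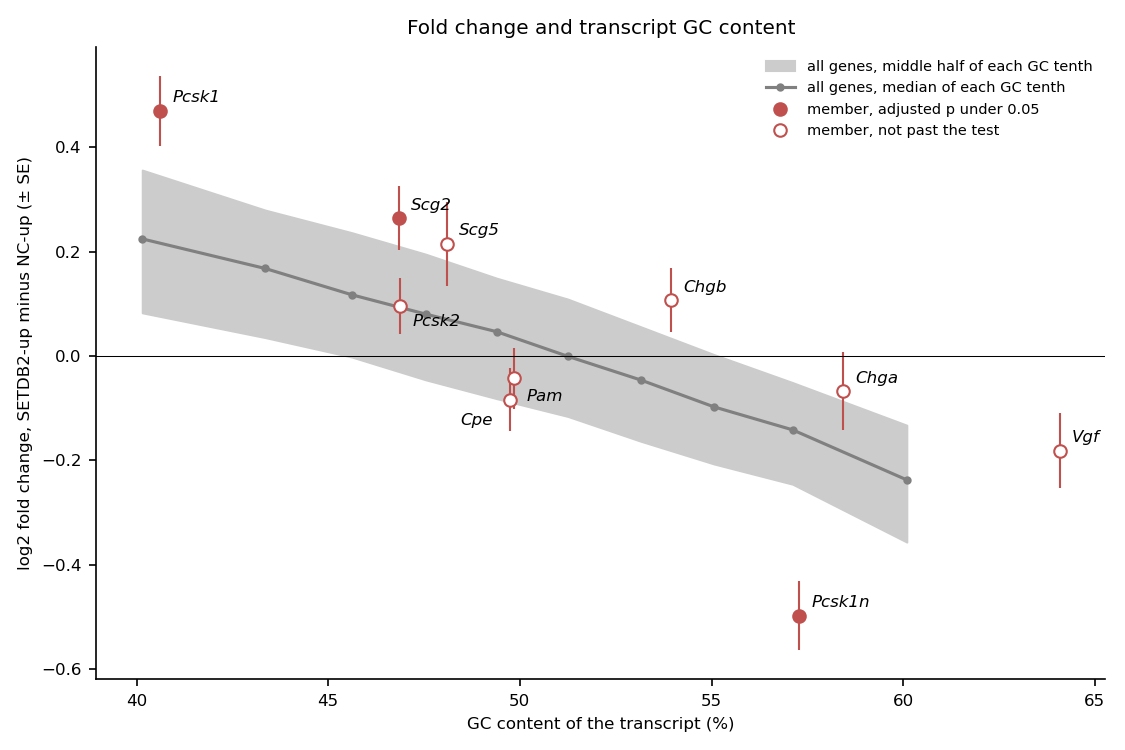
Log2 fold change (SETDB2-up minus NC-up, ± SE) of the 10 genes against the GC content of their transcripts in percent; the grey line and band are the median and the middle 50% of all genes in each decile of GC content. Pcsk1 at 40.6% GC and Pcsk1n at 57.3% GC lie furthest outside the band, on opposite sides.

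**Figure D4:**
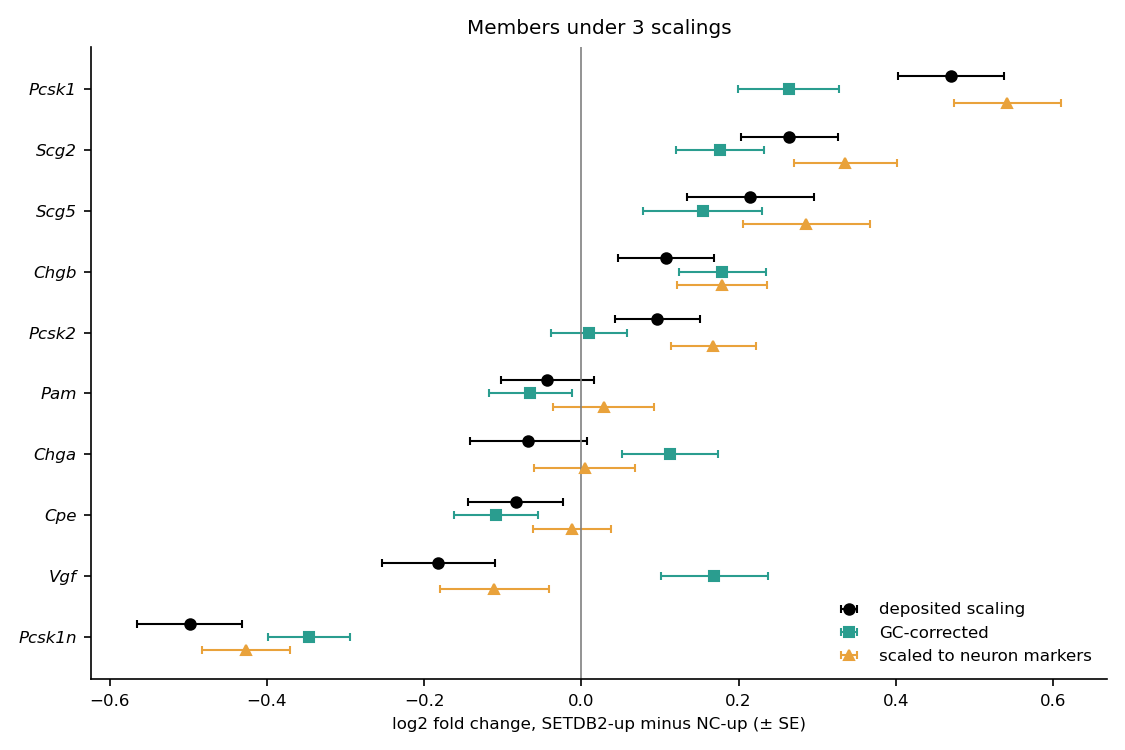
Log2 fold change (SETDB2-up minus NC-up, ± SE) of the 10 genes with the deposited scaling (black circles), after GC correction (green squares) and with neuron markers set equal (orange triangles). Pcsk1, Scg2, Scg5, Chgb and Pcsk2 are above 0 and Pcsk1n and Cpe below 0 under all 3, while Chga, Vgf and Pam change sign. Pcsk2 after GC correction (0.0095 ± 0.048 SE) and Cpe with neuron markers set equal (-0.012 ± 0.050 SE) are within their SE of 0. So are Chga (-0.067 ± 0.074 and 0.0041 ± 0.065 SE) and Pam (-0.043 ± 0.059 and 0.028 ± 0.064 SE) with the deposited scaling and with neuron markers set equal.

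Promoters of the 10 genes were looked up because several granin and convertase genes are known targets of the cAMP-responsive factor CREB. RefSeq windows of GRCm38.p6, from 250 bases before to 50 after the start, were found for 8 of the 10 genes. None was found for Vgf or Cpe, so these were not searched. The windows were searched on both strands for the full cAMP response element TGACGTCA and for TGACG, its first 5 bases. The full element was in the windows of Pcsk1, Scg2 and Chgb, against 1.79% of all 32851 windows. Outside it, TGACG was found in Pcsk1, Chga, Pcsk2 and Scg5, against 20.8% of all windows with TGACG anywhere. Neither was in the windows of Pcsk1n or Pam. The 120 bases before the start of 4 genes are shown 5′ to 3′ with these matches in capitals: the 2 that rose (Pcsk1, chr13:75089737-75089856, plus strand; Scg2, chr1:79440027-79440146, minus strand), Chgb, which has the full element and did not pass (chr2:132781522-132781641, plus strand), and Pcsk1n, which fell (chrX:7919702-7919821, plus strand).
Pcsk1: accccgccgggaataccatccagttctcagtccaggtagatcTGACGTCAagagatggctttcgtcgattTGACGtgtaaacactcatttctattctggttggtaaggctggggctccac
Scg2: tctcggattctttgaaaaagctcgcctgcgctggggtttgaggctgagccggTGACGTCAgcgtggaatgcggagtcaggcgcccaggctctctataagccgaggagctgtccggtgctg
Chgb: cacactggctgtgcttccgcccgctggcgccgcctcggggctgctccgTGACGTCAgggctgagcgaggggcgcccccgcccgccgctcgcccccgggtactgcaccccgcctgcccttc
Pcsk1n: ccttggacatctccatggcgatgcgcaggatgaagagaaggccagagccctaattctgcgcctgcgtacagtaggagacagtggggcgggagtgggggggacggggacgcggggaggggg

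The full element lies 78 to 71 bases before the start in Pcsk1, 68 to 61 in Scg2 and 72 to 65 in Chgb. For Pcsk1 this RefSeq start follows base 75089856, so the window shown lies inside the gene span given above (75089420 to 75134861). Across the table, 416 tested genes have the full element in a window; 32 of them rose and 43 fell (7.69% and 10.3%), against 7.88% and 8.66% of the 12869 tested genes with any window. Their median log2 fold change was 0.00. The element is thus shared by genes that rose, fell and did not pass, and a match of letters is not evidence of a bound site.

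Other genes of the same route gave mixed results. Of 35 dense-core vesicle genes, 4 rose, 2 fell and 29 did not pass (median log2 fold change 0.03). Over all genes tested 7.71% rose and 8.71% fell, so the list's 6 calls in 35 are near that background. The risers were Rab3c, a GTPase of secretory vesicles (0.36 ± 0.06 SE; by limma, adjusted p = 0.000446), the vesicle synaptotagmin Syt4 (0.30 ± 0.06 SE, adjusted p = 0.00260), Ccdc186, which acts in vesicle maturation (0.34 ± 0.07 SE, adjusted p = 0.00319), and the granin relative Scg3 (0.24 ± 0.05 SE, adjusted p = 0.00435). Scg3, secretogranin III, averaged 7797 ± 126 normalised reads in SETDB2-up and 6583 ± 215 in NC-up (SD, n = 3 each). Ptprn, the vesicle membrane protein IA-2, fell to 6474 ± 374 in SETDB2-up, against 7672 ± 325 in NC-up (log2 fold change -0.25 ± 0.06 SE; by limma, adjusted p = 0.00738). The calcium sensor Syt7 fell as well (-0.21 ± 0.06 SE, adjusted p = 0.0173). After GC correction Rab3c alone of the 6 passed (0.17, adjusted p = 0.0407), and the GTPase Rab2a fell (-0.21, adjusted p = 0.0173). Among the most abundant genes that did not pass were the vesicle priming factor Cadps (0.10 ± 0.06 SE) and Rab3a (-0.13 ± 0.06 SE).

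Of 17 other convertases and trimming enzymes, 1 rose and 3 fell (median log2 fold change -0.09), against 7.71% and 8.71% of all genes tested. The cathepsin Ctsl rose (0.20 ± 0.06 SE; by limma, adjusted p = 0.0165). Furin, the convertase of the constitutive pathway (-0.26 ± 0.08 SE, adjusted p = 0.0348), the related convertase Pcsk7 (-0.22 ± 0.07 SE, adjusted p = 0.0462) and the carboxypeptidase-like matrix protein Aebp1 (-0.52 ± 0.11 SE, adjusted p = 0.00277) fell. Pcsk7 lies under Rnf214 on the opposite strand, which has 4.10 times its reads, and Aebp1 overlaps Pold2 on the opposite strand, so both counts are uncertain without the strand setting. After GC correction none of the 17 passed (limma), with 1 at an unadjusted p under 0.05; without that correction edgeR and DESeq2 called 4 each. Carboxypeptidase D (Cpd, 0.04 ± 0.06 SE), Mbtps1 (-0.09 ± 0.06 SE) and Pcsk6 (-0.09 ± 0.08 SE) did not pass.

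Of 10 genes for copper supply and partners of PAM, 1 rose: Uhmk1, a kinase that binds and phosphorylates PAM (0.20 ± 0.05 SE; by limma, adjusted p = 0.0179; 0.06, adjusted p = 0.536, after GC correction). Over all genes tested 7.71% rose and 8.71% fell, so 1 of 10 is near that background. Kalrn, a PAM-binding exchange factor (0.04 ± 0.08 SE), the copper chaperone Atox1 (-0.10 ± 0.08 SE) and Cyb561, which supplies electrons to vesicle enzymes (0.02 ± 0.10 SE), did not pass.

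Among the precursors that these enzymes cut, 17 of 28 were in the table, 3 rose and none fell (median log2 fold change -0.02). Over all genes tested 7.71% rose and 8.71% fell. The 3 calls of 17 are near the 16.4% that passed in either direction, but all 3 are upward. Tac1, the substance P precursor, averaged 2428 ± 20.3 normalised reads in SETDB2-up and 1876 ± 45.1 in NC-up (SD, n = 3 each; log2 difference 0.37 ± 0.06 SE; by limma, adjusted p = 0.000384). Nts, the neurotensin precursor, had 186, 184 and 87.4 in SETDB2-up, against 58.3, 73.7 and 42.0 in NC-up (1.34 ± 0.26 SE, adjusted p = 0.00213). SETDB2-up library 3 was well below the other 2 for Nts, and those 2 are the libraries with the albumin reads. Without them the log2 difference of Nts was 0.62 ± 0.40 (SE) and did not pass (adjusted p = 0.535), while Tac1 (0.37, adjusted p = 0.0200) and Calca (0.31, adjusted p = 0.0153) did. What part liver transcripts had in this was not tested. Calca rose by 0.26 ± 0.05 on the log2 scale (SE, adjusted p = 0.00335). All 3 passed after GC correction as well (0.27, 1.11 and 0.21, with limma adjusted p = 0.00593, 0.0178 and 0.0126). After that correction 1.79% of all genes rose and 3.56% fell. The abundant precursors Nmb (-0.05 ± 0.07 SE), Calcb (-0.02 ± 0.07 SE) and Adcyap1 (0.06 ± 0.07 SE) did not pass.

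Of 13 regulators of the neuroendocrine programme, 3 fell and none rose (median log2 fold change -0.08), against 8.71% and 7.71% of all genes tested. Rcor2, a corepressor that works with REST, had a log2 difference of -0.74 ± 0.12 (SE; by limma, adjusted p = 0.000519; -0.47, adjusted p = 0.0303, after GC correction). The CREB coactivator Crtc3 (-0.29 ± 0.08 SE, adjusted p = 0.0136) and Insm1, a zinc-finger factor of endocrine cells (-0.50 ± 0.15 SE, adjusted p = 0.0325), fell and did not pass after GC correction (-0.15 and -0.22; adjusted p = 0.311 and 0.434). Myt1l (-0.05 ± 0.07 SE), Crtc1 (-0.08 ± 0.07 SE) and Myt1 (0.09 ± 0.07 SE) did not pass.

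Of 4 receptors for granin and proSAAS peptides, C3ar1, C1qbp and Gpr83 were in the table and none passed by limma, edgeR or DESeq2, nor at an unadjusted p under 0.05 by limma. C1qbp had 896 ± 35.3 normalised reads in SETDB2-up and 993 ± 95.9 in NC-up, C3ar1 69.0 ± 25.8 in SETDB2-up and 56.4 ± 24.8 in NC-up, and Gpr83 52.0 ± 12.7 in SETDB2-up and 64.5 ± 16.5 in NC-up (SD, n = 3 each). C3ar1 and Gpr83 had a wide spread between libraries in both groups.

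**Figure D5:**
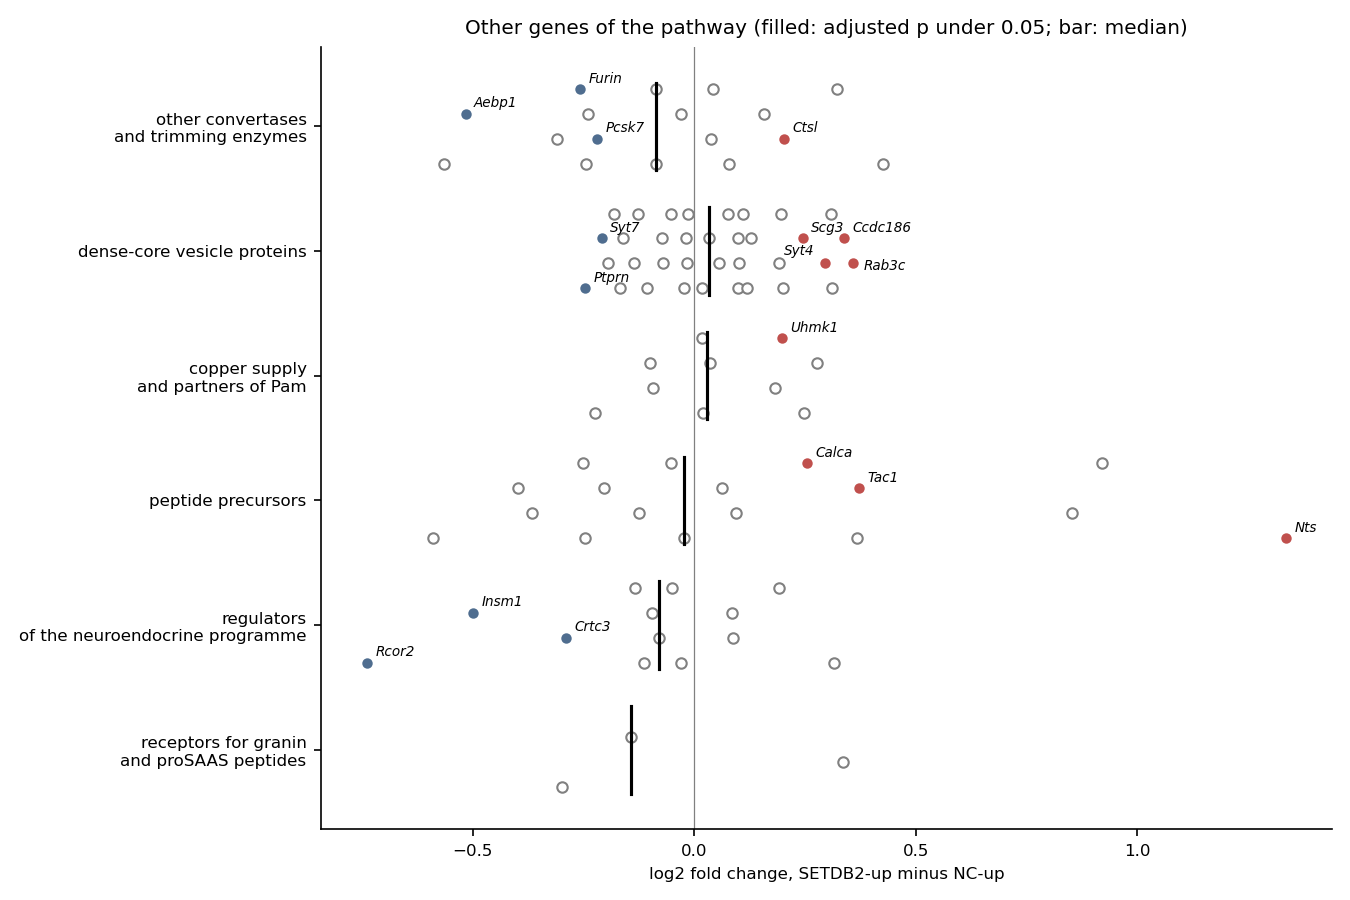
Log2 fold change (SETDB2-up minus NC-up, x axis) of each gene in 6 lists of the same route; filled symbols passed limma's test (red higher, blue lower), open ones did not, and the black bar is the list's median. The medians lie between -0.14 and 0.03, and the named genes are those that passed.

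The genes whose pattern over the 6 libraries was most like that of Pcsk1n, by distance between centred log2 profiles among 12231 genes with a mean of at least 100, were C1ql4, 1110065P20Rik and Lrrc4b. Their log2 fold changes were -0.48, -0.51 and -0.49. They lie on chromosomes 15, 4 and 7 and have a GC content of 61.0%, 68.4% and 63.1%, above that of Pcsk1n.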

How the data were processed

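Read counts per gene were deposited as a normalised signal, which the authors made by dividing each library's counts by 1 factor, as the values show: 100% of them are whole multiples of their library's step (tolerance 0.001 read). FastQC, HISAT2 and the GRCm38 build are named in the submitters' processing notes; not given in the sources used here were the counting tool, its strand setting, the annotation and any filter on low counts. Libraries were strand-specific and enriched for polyadenylated RNA, per the labels' protocols. The smallest sum over the 6 libraries is 33 reads, and 3 reads correspond to 0.128 to 0.155 CPM, a limit that covers counting error only.

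The test was limma (3.58.1, R 4.3.3) with a mean-variance trend on log2(value + 1), over the 16387 genes that reached a value of 1 in 3 or more libraries (28 removed), with Benjamini-Hochberg adjustment over all genes and a threshold of 0.05. On this log2(value + 1) scale, fold changes of genes with few reads come out too small. Whole reads recovered from the values served edgeR (4.0.16) and DESeq2 (1.42.0) as alternatives; with TMM factors edgeR called 2680 genes. The scripts were tested on simulated counts.

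GC content came from GENCODE M21 transcripts (the longest protein-coding one per gene, 94.7% of genes matched) and length from its merged exons. The GC correction subtracted a lowess trend (span 0.3) from each library and used 15513 genes. Other alternatives were a pseudocount of 0.1, no filter, a filter at 10, other size factors, neuron marker scaling, a replicate block and leaving out libraries. Exact two-sided permutation tests over libraries were used for ratios and shares.

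The 10 genes, the lists and the tests were chosen with earlier results of these data known. Genes named from the lists are those with the smallest p among the called and the most abundant others, up to 6 and up to 3 per list.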

Additional observations from a re-analysis of the deposited data

How the results depend on the processing

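Over the 20 alternatives, Pcsk1n kept its direction and its call in all and Pcsk1 in 19. After GC correction Chga (0.11) and Vgf (0.17) turned sign and Scg2 lost its call (0.18). GC correction without SETDB2-up libraries 1 and 2 gave 0.24 for Chga, 0.038 for Vgf, 0.014 for Cpe, 0.36 for Pcsk1 and 0.21 for Scg2, the last 2 past no threshold, and 1 of the 10 genes changed. Without those libraries and with no GC correction, Chga (0.13) and Cpe (0.039) turned and Scg2 (0.28) lost its call. Neuron marker scaling turned Chga (0.0041) and Pam (0.028), brought Chgb (0.18), Pcsk2 (0.17) and Scg5 (0.29) past the threshold, and gave 6 of the 10. Scg5 also passed without both libraries 3 (0.31). The settings without both libraries 3, and with GC correction but without SETDB2-up libraries 1 and 2, were chosen after seeing the data. The cause was not tested.

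The labels do not say whether libraries of the same number share a batch or a pairing. Their deviations from the group means correlated at 0.09, 0.12 and 0.09, and those of different numbers at -0.09 to -0.03. Each library thus correlated best with its own number, and the cause was not tested. A gene's deviations sum to 0 within each group, so positive values for the same number bring negative ones among the others. With the replicate number as a block, 5 of the 10 genes passed, with Scg5 (0.21) and Vgf (-0.18) added, and 3618 of all genes, against 2690 without it. Block and GC correction together gave 6 of the 10: Pcsk1, Scg2, Chgb (0.18) and Vgf (0.17) higher and Pcsk1n and Cpe (-0.11) lower. Vgf thus passed as lower with the block (adjusted p = 0.0115) and as higher with both (adjusted p = 0.0155), Scg5 lost its call there (adjusted p = 0.152), and Chga (0.11) turned without passing.

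Over all genes, 830 passed after GC correction, 1670 with the block as well, 447 without SETDB2-up libraries 1 and 2, and 276 with both. Of the other convertases and trimming enzymes, 0, 1, 1 and 1 passed in these settings, and 2 with neuron marker scaling; of the copper list 0, 0, 0 and 0, with 3 under that scaling and 2 with the block; of the regulators 1, 1, 0 and 0, and 1 under that scaling. Of the dense-core list 2 passed after GC correction and 0 without SETDB2-up libraries 1 and 2, with or without the correction.

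Leaving out single libraries gave 2 to 4 of the 10 genes and 1082 to 3335 genes overall (fewest without SETDB2-up library 1, and 1575 and 1611 without SETDB2-up library 2 and NC-up library 2). Fold changes ranged from -0.58 to -0.44 for Pcsk1n, 0.43 to 0.52 for Pcsk1, 0.22 to 0.32 for Scg2, 0.15 to 0.31 for Scg5, -0.26 to -0.12 for Vgf, -0.17 to 0.013 for Chga (the last without SETDB2-up library 1), 0.07 to 0.17 for Chgb, 0.08 to 0.11 for Pcsk2, -0.14 to -0.05 for Cpe and -0.08 to -0.02 for Pam. Vgf passed without SETDB2-up library 2. Counts ranged from 1 to 4 for the convertase list, 4 to 9 for the dense-core list, 0 to 1 for copper, 3 to 4 for precursors and 1 to 4 for regulators. With 1 library left in a group, the lone library is assumed to vary like the others.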

Other observations

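The 6 markers of large-diameter neurons summed to 15774 to 17079 normalised reads in SETDB2-up and 13471 to 13936 in NC-up. These sums did not overlap between groups, which held for 33.3% of all genes tested singly. By limma 3 of the 6 rose and none fell, against 7.71% and 8.71% of all genes tested. After GC correction 2 of the 6 rose, against 1.79%. The most abundant, the neurotrophin receptor Ntrk2, averaged 5334 ± 166 in SETDB2-up and 4482 ± 266 in NC-up (SD, n = 3 each; log2 difference 0.25 ± 0.06 SE; adjusted p = 0.00648 by limma). The 7 markers of peptidergic nociceptors, among them Tac1 and Calca, summed to 36865 to 38442 in SETDB2-up and 35529 to 37717 in NC-up, and the 5 others did not pass.

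Markers of other cells fell or did not pass, apart from liver. The counts are read against all genes tested, of which 7.71% rose and 8.71% fell (1.79% and 3.56% after GC correction). Of 7 Schwann cell markers 3 fell, of 7 fibroblast markers 4, of 6 endothelial markers 1, of 5 erythroid markers 1, of 6 skeletal muscle markers tested 3 and of 4 keratinocyte markers tested 4; none of these rose. After GC correction none of the Schwann cell and endothelial markers passed (2 of each at an unadjusted p under 0.05), and 3 fibroblast, 1 erythroid, 1 skeletal muscle and 2 keratinocyte markers fell. None of 6 satellite glia and 7 macrophage markers passed by limma (2 and 0 at an unadjusted p under 0.05; edgeR and DESeq2 also called 0). Of 11 liver markers in the table only 6 reached the filter, and 5 of these rose. Alb, with no read in NC-up, reached it through SETDB2-up alone, so that count depends on the filter. Of 4 pituitary markers 1 fell.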
